A study of Mus musculus with 7 samples.

Results

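Complement messenger RNA was followed in the heart through 9 genes of the classical pathway and its control. They were chosen by gene name and by role, with earlier results of these data known. They are the 3 subunit genes of C1q (C1qa, C1qb and C1qc), the 2 C1 protease genes C1ra and C1s1, the 2 regulators Serping1 and Cd55, and the 2 anaphylatoxin receptor genes C3ar1 and C5ar1. All 9 were found among the 20343 genes of the table, and all 9 were expressed well enough to be tested. The study took apical myocardium from 7 NSG-DR1 mice, which the labels give as strain NSG-DRB1*0101. These are immunodeficient mice of the NSG background that carry a human HLA-DR1 transgene, and both groups shared that genotype. Untreated mice gave the 4 control hearts. The 3 transferred hearts came from mice given human CD4+ T cells, 6 weeks after that transfer. The labels do not state the age or sex of the mice or the number of cells given, and untreated mice do not control for the injection itself.

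C1 is the complex that starts the classical pathway. C1q recognises immune complexes, dying cells and some microbial surfaces, and its bound proteases C1r and C1s then cleave the next components in turn. Most complement proteins come from the liver, but C1q is made mainly by macrophages and related myeloid cells, including those resident in the heart, whereas C1r, C1s and the C1 inhibitor are also made by fibroblasts and other stromal cells. Serping1 encodes that inhibitor, and Cd55 encodes decay-accelerating factor, a membrane protein that dismantles the convertases of the cascade. C3ar1 and C5ar1 encode the receptors for C3a and C5a on myeloid cells. NSG mice descend from the NOD strain, which is known to lack functional C5.

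The deposited counts of these libraries summed to between 16402194 and 25190580 over the part of the genome analysed, chromosomes 1 to 7 and the start of chromosome 8. Levels are given as CPM, the count of a gene relative to the TMM-scaled sum of its heart, and 3 counts correspond to between 0.115 and 0.189 CPM. Markers of heart muscle, the labelled tissue, were abundant, with 12 cardiomyocyte genes summing to between 117626 and 147690 CPM. The 6 mouse T cell genes analysed summed to 30.0 to 38.3 CPM in control hearts and 28.5 to 36.03 CPM in transferred hearts, most of it from Cd28 at 21.9 to 31.4 CPM. Cd4 was between 1.46 and 4.42 CPM and Cd247 between 1.28 and 4.86 CPM, while Cd2, Lck and Cd8a were under 0.5 CPM in every heart. All counts are of mouse genes, so these levels do not measure the human T cells given. The 3 transferred hearts differed from each other in other respects. The summed level of 12 interferon-responsive genes was 1914 CPM in transferred heart 1, 590 in heart 2 and 338 in heart 3, against 290 to 335 CPM in control hearts. The summed level of 7 neutrophil genes was 317 CPM in transferred heart 2, against 24.1 and 54.7 CPM in hearts 1 and 3 and 14.0 to 39.8 CPM in control hearts. Oas2 was the 1 interferon gene that passed the edgeR test, and 0 of the 7 neutrophil genes did. At an unadjusted p-value under 0.05 were 10 of the 12 interferon genes and 6 of the 7 neutrophil genes, against 12.4% of all tested genes in either direction.

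All 9 members had a higher mean in transferred hearts, by a log2 fold change of 0.46 to 0.98 with a median of 0.75. Over all 7667 tested genes the median was -0.002, and 49.7% of genes had a log2 fold change above 0. In 7 of the 9, every transferred heart was above every control heart, a pattern seen in 6.00% of tested genes, and the exceptions were Cd55 and C3ar1. Only C1qb passed the edgeR quasi-likelihood test with Benjamini-Hochberg adjustment over all tested genes (adjusted p = 0.0384), where 0.130% of tested genes were called higher. C1qb was not called with the form of the animal identifier as a covariate (edgeR adjusted p = 0.0727) or by limma-voom (adjusted p = 0.0703), and under both settings 0 of the 7667 genes passed. At an unadjusted p-value under 0.05, all 9 were higher, against 7.17% of tested genes. Because the members were chosen with earlier results known, these shares describe them and are no test of the set. DESeq2 called 7 members higher, all but Serping1 and C3ar1, and called 2.31% of the genes it tested higher.

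**Figure D1:**
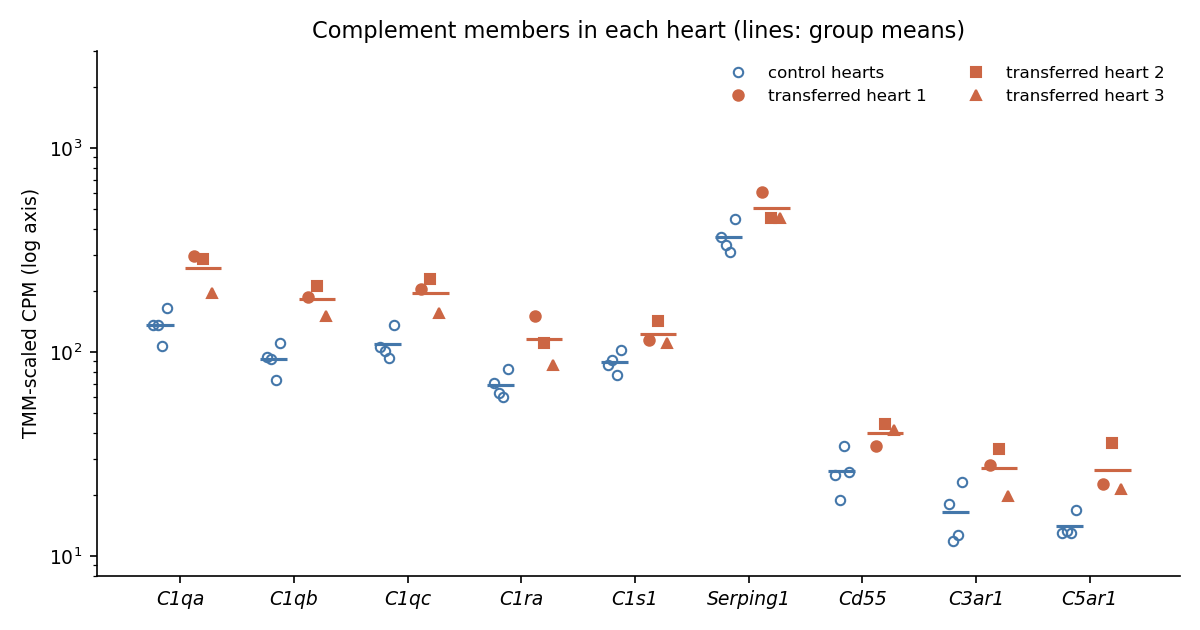
Level of each complement gene in each heart, as TMM-scaled CPM on a log axis, with open circles for the 4 control hearts, a filled circle, square and triangle for transferred hearts 1, 2 and 3, and lines for group means. The groups do not overlap for 7 genes and overlap for Cd55 and C3ar1, and transferred heart 3 lies nearest to the control hearts for the 3 C1q genes.

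The C1q subunit genes had the 3 smallest adjusted p-values of the members. They lie side by side on the minus strand of chromosome 4 (GRCm38), with C1qb at 136880126 to 136886200, C1qc at 136889801 to 136892936 and C1qa at 136895916 to 136898844. C1qb, which encodes the B chain, stood at 94.0, 92.8, 73.1 and 110.8 CPM in control hearts 1 to 4 and at 186.1, 211.5 and 150.2 CPM in transferred hearts 1 to 3. The lowest transferred heart was thus above the highest control heart. The mean was 92.7 ± 15.4 CPM in control hearts (SD, n = 4) and rose to 182.6 ± 30.8 CPM after transfer (SD, n = 3), which is 0.98 ± 0.15 (SE) on the log2 scale.

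C1qa, the A chain gene, stood at 135.8, 135.4, 107.5 and 164.5 CPM in control hearts and at 294.7, 287.0 and 195.4 CPM in transferred hearts. Its log2 fold change was 0.93 ± 0.17 (SE, edgeR adjusted p = 0.0618). C1qc, the C chain gene, stood at 106.1, 101.3, 93.2 and 136.0 CPM in control hearts and at 204.0, 226.8 and 154.9 CPM in transferred hearts. Its log2 fold change was 0.84 ± 0.15 (SE, edgeR adjusted p = 0.0618). In both genes the groups did not overlap, with transferred heart 3 the lowest of its group and control heart 4 the highest of its own. The call on C1qb depended on single hearts. Its log2 fold change lay between 0.86 and 1.10 when any heart was left out, but it stayed past the threshold in only 1 of these 7 fits, that without transferred heart 3. In 4 of the other 6 fits no gene at all passed. In whole tissue such as this, more cells of a type and more RNA per cell cannot be told apart.

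The C1q molecule is assembled from equal numbers of A, B and C chains, so the share of each subunit was followed from heart to heart. Scaled by exon length, C1qa made up 41.1% ± 1.38 (SD, n = 7) of the summed C1q signal, C1qc 30.9% ± 1.44 and C1qb 28.0% ± 1.21. The C1qa share ranged from 39.8% to 43.8%, the C1qc share from 29.1% to 33.3% and the C1qb share from 26.7% to 30.0%. The order C1qa, C1qc, C1qb held in all 7 hearts. The shares therefore moved by a few percentage points between hearts while the summed C1q level ranged from 273.8 to 725.3 CPM.

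Since the 3 C1q genes had similar differences, their promoter sequences are shown, read from RefSeq (GRCm38.p6) as 250 bases before to 50 bases after the transcription start. The reference promoter table held 7 of the 9 members, with C1qa and Serping1 not among them. Each was searched on both strands for the core site of PU.1 (GAGGAA), a MAF half-site (TGCTGAC), the gamma-activated site of interferon-gamma responses (TTCNNNGAA) and the interferon-stimulated response element (GAAANNGAAA). PU.1 is the transcription factor of the myeloid lineage, and MAF proteins act in macrophages. The C1qb window is chr4:136886151-136886450 and the C1qc window is chr4:136892865-136893164, both on the minus strand, with matches in capitals.
C1qb: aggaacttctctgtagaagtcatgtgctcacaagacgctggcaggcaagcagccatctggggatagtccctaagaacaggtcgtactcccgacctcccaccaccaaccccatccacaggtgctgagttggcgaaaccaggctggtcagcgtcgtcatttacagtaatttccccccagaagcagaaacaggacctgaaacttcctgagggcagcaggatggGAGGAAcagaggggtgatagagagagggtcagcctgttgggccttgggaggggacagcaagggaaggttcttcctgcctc
C1qc: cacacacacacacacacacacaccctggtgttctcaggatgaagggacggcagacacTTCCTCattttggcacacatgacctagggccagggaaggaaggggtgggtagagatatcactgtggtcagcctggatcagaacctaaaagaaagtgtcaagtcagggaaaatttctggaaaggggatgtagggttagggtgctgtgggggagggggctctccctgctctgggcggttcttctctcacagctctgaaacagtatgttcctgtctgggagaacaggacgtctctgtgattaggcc

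The capitals mark a PU.1 core at positions -30 to -25 of C1qb and, on the opposite strand, at -193 to -188 of C1qc, counted from the transcription start. This is a common match, present in 28.3% of 32851 reference promoters of the same length, and it describes the letters only. Spi1, the gene of PU.1, stood at 9.92, 10.2, 7.68 and 10.6 CPM in control hearts and at 17.7, 23.9 and 14.5 CPM in transferred hearts. Its groups did not overlap, and its log2 fold change was 0.96 (edgeR adjusted p = 0.0702). Spi1 was singled out after its values were seen. Neither C1q window held the other motifs.

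The C1 proteases had their highest levels in different transferred hearts. C1ra (chromosome 6, 124512621 to 124523440) stood at 70.5, 63.0, 60.2 and 82.4 CPM in control hearts and at 149.8, 111.2 and 86.0 CPM in transferred hearts. Transferred heart 1 was far above the others and transferred heart 3 just above the highest control heart. The log2 fold change was 0.75 ± 0.18 (SE, edgeR adjusted p = 0.132), and it was 0.52 without transferred heart 1. C1s1 (chromosome 6, 124530344 to 124542392), whose enzyme C1r activates, stood at 86.7, 91.0, 77.0 and 102.8 CPM in control hearts and at 114.9, 142.6 and 110.2 CPM in transferred hearts. The groups again did not overlap, but here transferred heart 2 was the highest. Its log2 fold change was 0.46 ± 0.12 (SE, edgeR adjusted p = 0.151).

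The balance of the 2 protease genes set transferred heart 1 apart. The CPM of C1ra divided by that of C1s1 was 1.30 in that heart, against 0.78 in each of transferred hearts 2 and 3 and 0.69 to 0.81 in control hearts. The mouse also has the neighbouring copies C1rb and C1s2, and their ratio was likewise highest in transferred heart 1, at 2.75 against 1.29 to 1.86 in the other 6 hearts. The copies are hard to separate by sequence. Of the 75-base windows of the C1ra transcript, 40.1% also occur in C1rb transcripts, and 14.7% of the C1s1 windows occur in C1s2. Some deposited values of these genes carried fractions of a read, so the division of reads between the copies is uncertain. With each pair summed, the log2 fold change was 0.76 for C1ra with C1rb and 0.44 for C1s1 with C1s2. Transferred heart 1 was also the heart with the highest interferon gene sum, 1914 CPM. The part of interferon-responsive genes in the C1ra level was not tested.

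The C1ra promoter is shown because, of the 7 members searched, it alone held a gamma-activated site (chr6:124512371-124512670, plus strand, matches in capitals).
C1ra: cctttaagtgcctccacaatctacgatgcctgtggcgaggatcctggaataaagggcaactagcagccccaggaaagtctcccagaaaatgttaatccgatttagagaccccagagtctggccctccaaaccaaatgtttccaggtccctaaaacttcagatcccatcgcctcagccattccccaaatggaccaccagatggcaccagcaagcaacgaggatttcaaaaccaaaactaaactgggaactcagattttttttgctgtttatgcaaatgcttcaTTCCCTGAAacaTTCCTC

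The first capitals are the gamma-activated site, at positions 33 to 41 after the start, and the second a PU.1 core on the opposite strand, at 45 to 50. A gamma-activated site was present in 8.30% of the reference promoters. The windows of C1s1, C3ar1 and C5ar1 held none of the 4 motifs, and that of Cd55 held a MAF half-site, which 4.67% of the reference promoters hold. An interferon-stimulated response element was found in no member window and in 3.44% of the reference promoters.

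C1q and its proteases were next compared within each heart, where scaling between libraries does not enter. The summed C1q signal divided by that of C1ra and C1s1 was 2.14, 2.14, 1.996 and 2.22 in control hearts and 2.59, 2.86 and 2.55 in transferred hearts. The groups did not overlap, and the mean ratio was 2.12 ± 0.0936 for controls (SD, n = 4) and 2.66 ± 0.168 after transfer (SD, n = 3). C1q was thus higher by 1.89-fold in the group means and the proteases by 1.504-fold. The difference between these changes was not tested, since it is a score over chosen members.

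The level of C1q was also set beside that of macrophage markers. The 11 macrophage markers analysed summed to 367.6, 363.2, 320.4 and 459.4 CPM in control hearts and to 715.4, 757.0 and 498.0 CPM in transferred hearts. All 11 had a log2 fold change above 0, against 49.7% of tested genes, with a median of 0.77. The values ran from 0.08 for Mertk to 1.575 for Fcgr1. In 7 of them every transferred heart was above every control heart, against 6.00% of tested genes. Mrc1, the mannose receptor gene, was the one called higher by the edgeR test (adjusted p = 0.0384), against 0.130% of tested genes. The summed C1q signal per macrophage marker signal was 0.91, 0.91, 0.85 and 0.90 in control hearts and 0.96, 0.96 and 1.005 in transferred hearts. C1q and the markers thus gave the same order of hearts within each group, and the ratio itself was 1.09-fold higher in transferred hearts with no overlap between the groups. No test was made of this ratio.

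**Figure D2:**
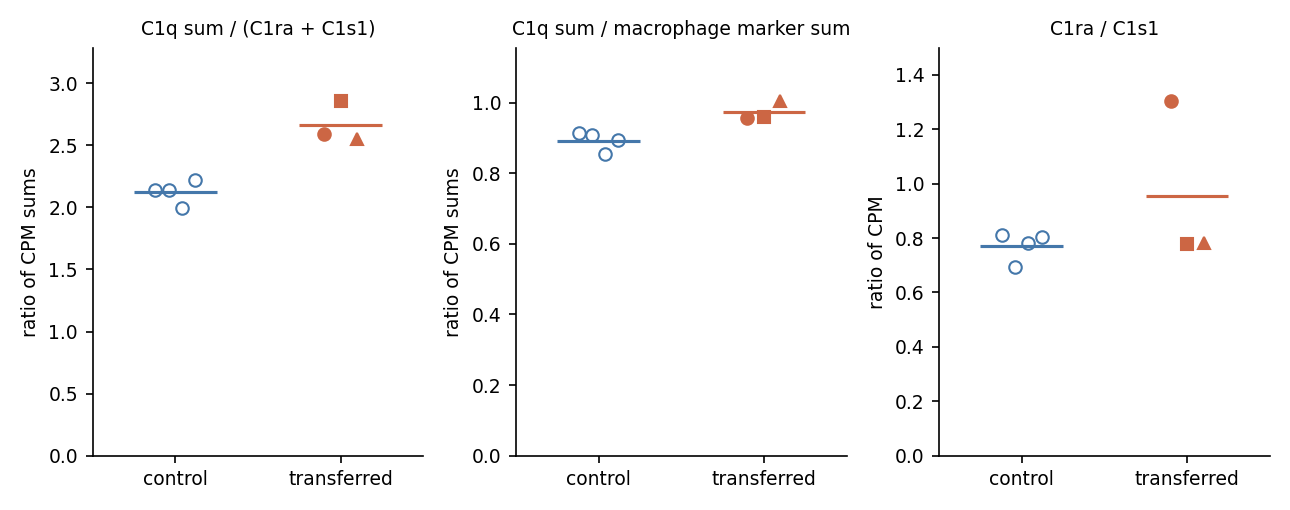
Ratios within each heart, with open circles for control hearts, filled symbols for transferred hearts (circle heart 1, square heart 2, triangle heart 3) and lines for group means. C1q per C1ra and C1s1 was 1.996 to 2.22 in control hearts and 2.55 to 2.86 in transferred hearts, C1q per macrophage marker signal moved by little, and C1ra per C1s1 stood apart in transferred heart 1 at 1.30.

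Serping1, the C1 inhibitor gene (chromosome 2, 84765360 to 84775444), was the most abundant member. It stood at 364.7, 335.2, 310.3 and 446.9 CPM in control hearts and at 608.1, 454.3 and 454.8 CPM in transferred hearts. Transferred hearts 2 and 3 were only just above control heart 4, and transferred heart 1 was well above the rest. The log2 fold change was 0.47 ± 0.14 (SE, edgeR adjusted p = 0.215), and it was 0.32 without transferred heart 1. Serping1 per summed C1ra and C1s1 was 2.18 to 2.41 in control hearts and 2.30, 1.79 and 2.32 in transferred hearts 1 to 3, so these ranges overlapped, with transferred heart 2 below all others.

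Cd55 (chromosome 1, 130429798 to 130465009) behaved differently from the other members among the control hearts. It stood at 24.9, 18.8, 34.6 and 25.6 CPM in control hearts and at 34.4, 44.2 and 41.6 CPM in transferred hearts. Control heart 3 was the highest control heart here and lay just above transferred heart 1, so the groups overlapped. For the other 8 members, control heart 4 was the highest of its group. The log2 fold change of Cd55 was 0.62 ± 0.18 (SE, edgeR adjusted p = 0.201). Its neighbour Cd55b shares 9.39% of the 75-base windows of Cd55, and an antisense gene over the locus, Cd55os, had no counts in any heart.

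The fibroblast markers overlapped between the groups in their summed level. The 11 analysed summed to between 5543 and 7398 CPM in control hearts and between 5104 and 7951 CPM in transferred hearts, with a median log2 fold change of 0.05. In 0 of the 11 did every transferred heart lie on one side of every control heart. Among all tested genes this held for 6.00% with transferred higher and 5.22% with transferred lower. The edgeR test called 0 of the 11, against 0.235% of tested genes, and 0 had an unadjusted p-value under 0.05, against 12.4%. For 11 genes, counts of 0 are near these shares. Gsn and Col3a1, the most abundant, had log2 fold changes of 0.16 and -0.12. Transferred heart 1, highest in C1ra and Serping1, had the highest fibroblast sum, of which Gsn gave 5296 CPM. Without Gsn the sum was 2655 CPM in that heart and 2925 CPM in control heart 4, the highest. Transferred heart 1 was the highest heart in 3 of the 11 markers and control heart 4 in 7. The part of fibroblasts in these levels was not tested.

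The anaphylatoxin receptor genes had the lowest CPM of the members. C5ar1 (chromosome 7, 16246743 to 16259540), the C5a receptor gene, stood at 12.98, 13.3, 12.97 and 16.8 CPM in control hearts and at 22.5, 35.7 and 21.2 CPM in transferred hearts. The groups did not overlap, and transferred heart 2 was the highest. The log2 fold change was 0.92 ± 0.19 (SE, edgeR adjusted p = 0.0792), and it was 0.65 without transferred heart 2. Neutrophils also carry this receptor, and the neutrophil gene sum of transferred heart 2 was 317 CPM, the highest of all. The part of neutrophils in the C5ar1 level was not tested.

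C3ar1 (chromosome 6, 122847140 to 122856157), the C3a receptor gene, stood at 17.99, 11.8, 12.7 and 23.0 CPM in control hearts and at 28.0, 33.4 and 19.6 CPM in transferred hearts. Transferred heart 3 fell inside the control range, so the groups overlapped. For C3ar1 the log2 fold change was 0.73 ± 0.25 (SE, edgeR adjusted p = 0.292). Relative to summed C1q, C3ar1 was 3.59% to 5.60% in control hearts and 3.91% to 4.60% in transferred hearts. C5ar1 was 3.87% to 4.74% of summed C1q in control hearts and 3.29% to 4.92% in transferred hearts. Both ranges overlapped between the groups.

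**Figure D3:**
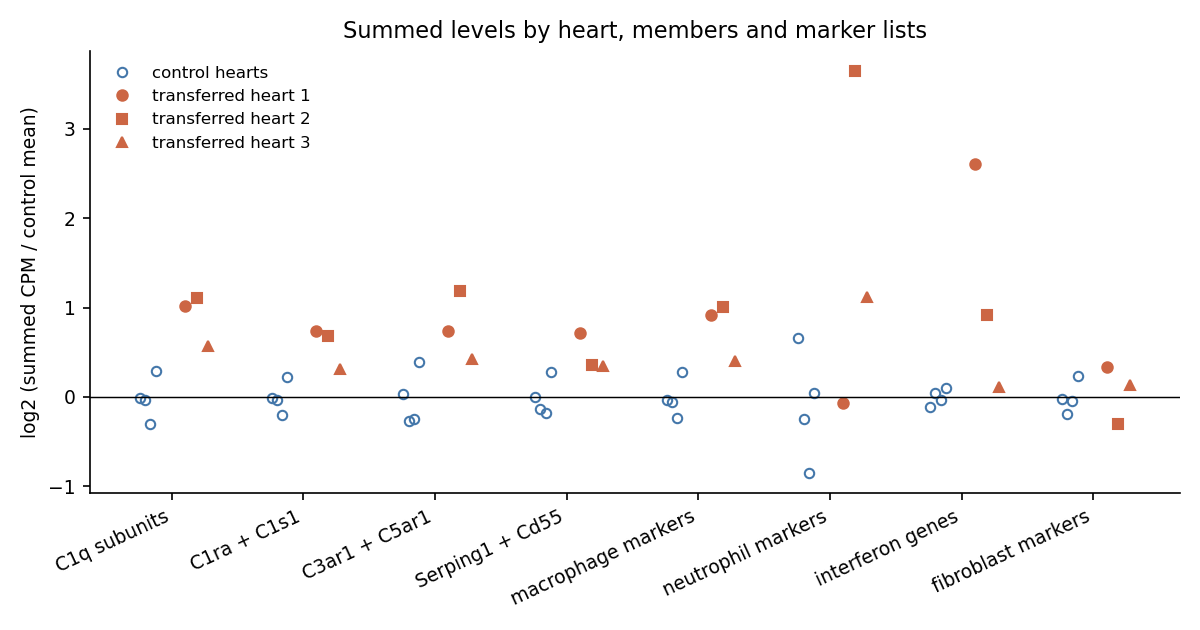
Summed CPM of the members by role and of marker lists in each heart, as log2 of the ratio to the mean of the control hearts. Transferred heart 2 stands out in neutrophil markers and transferred heart 1 in interferon genes, the macrophage markers follow the C1q subunits, and the fibroblast markers overlap between the groups.

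Between genes, levels were compared per kilobase of exon. In control hearts the order was Serping1 with 198.0 ± 32.3 CPM per kilobase (SD, n = 4), C1qa with 125.5 ± 21.5, C1qc with 96.9 ± 16.6 and C1qb with 83.96 ± 13.98. C1s1 followed with 28.7 ± 3.43 CPM per kilobase and C1ra with 24.99 ± 3.59, then C5ar1 with 5.46 ± 0.734, C3ar1 with 3.81 ± 1.21 and Cd55 with 1.45 ± 0.365. The ranges over the control hearts overlapped among the 3 C1q genes, between C1s1 and C1ra, and between C5ar1 and C3ar1. Within each of the 4 control hearts, however, every gene of this order was above the next. The deposited exon length of Cd55 was 17925 bases, by far the longest of the members, which lowers its value on this scale if shorter transcripts prevail. In transferred hearts the order of the means was the same except that C1ra, with 41.9 ± 11.6 CPM per kilobase (SD, n = 3), had a higher mean than C1s1, with 39.4 ± 5.63. Transferred heart 1 alone had C1ra above C1s1 on this scale, and C1s1 was above C1ra in the other 2. Serping1 was above C1qa in 2 of the 3 transferred hearts.

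**Figure D4:**
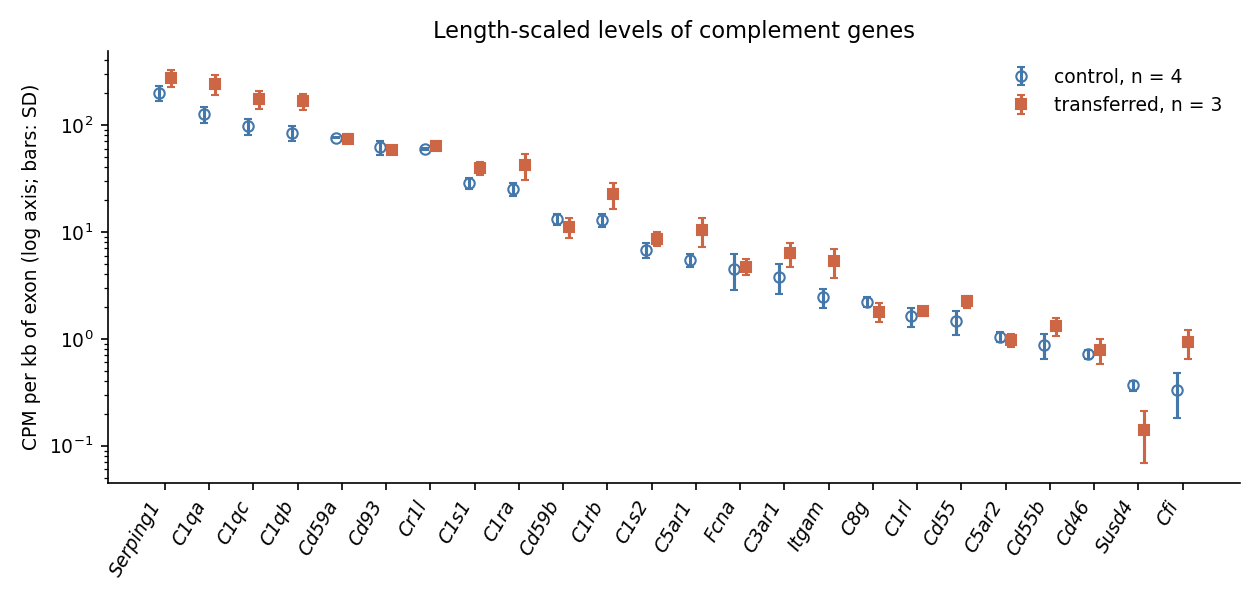
Mean level per kilobase of exon of the complement genes reported that had at least 0.3 CPM per kilobase in control hearts, on a log axis with SD bars, open circles for control hearts and filled squares for transferred hearts. Serping1 and the C1q genes lead, at 84.0 to 198.0 CPM per kilobase in control hearts, and C5ar1, C3ar1 and Cd55 lie more than 10 times lower.

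The wider complement system was followed through genes of its other pathways. Of 53 further components, regulators and receptors listed, 29 were on the analysed chromosomes and 19 were tested. Of these, 0 passed the edgeR test in either direction, against 0.235% of all tested genes, while 8 had an unadjusted p-value under 0.05, against 12.4% of all tested genes. DESeq2 called 2, C1rb and Itgam, both higher, against 2.31% of the genes it tested. The log2 fold change was above 0 in 13 of the 19, and its median was 0.16, against -0.002 for all tested genes. Every transferred heart was above every control heart in 5 of them, which include C1rb, Cfi, Itgam and Itgax, against 6.00% of tested genes. Every transferred heart was below every control heart in 1, Susd4, against 5.22% of tested genes.

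Among components, C1rb had a mean of 28.0 ± 3.93 CPM in control hearts (SD, n = 4) and of 48.5 ± 12.9 CPM after transfer (SD, n = 3). The log2 fold change was 0.79 for C1rb and 0.35 for C1s2. The related C1rl, the lectin pathway gene Fcna, which encodes a ficolin, and C8g, a subunit gene of the membrane attack complex, had log2 fold changes of 0.16, 0.07 and -0.31. Hc, which encodes C5, had 0 counts in every heart, as did the ficolin gene Fcnb, C8b and C4bp, so each lay under the floor of 3 counts. C3 and C4b are not analysed here.

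Among regulators, Cd59a, which blocks the membrane attack complex, had a log2 fold change of -0.03, its neighbour Cd59b one of -0.24, and Cr1l, the rodent convertase inhibitor Crry, one of 0.10. Cd46 and Cd55b had log2 fold changes of 0.13 and 0.56. Cfi, the factor I gene, was near the floor, with a control mean of 0.695 ± 0.312 CPM (SD, n = 4) and a transferred mean of 1.93 ± 0.581 CPM (SD, n = 3). Csmd1 was at a similar low level, with a log2 fold change of 0.93. Susd4, named after its values were seen, had a control mean of 1.34 ± 0.147 CPM (SD, n = 4) and a transferred mean of 0.511 ± 0.260 CPM (SD, n = 3).

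Among receptors, Itgam, which encodes the alpha chain of complement receptor CR3 on myeloid cells, had the second largest log2 fold change after Cfi of the complement genes with a mean of at least 1 CPM. It stood at 10.5, 10.6, 9.64 and 14.9 CPM in control hearts and at 22.4, 33.2 and 19.0 CPM in transferred hearts, and the log2 fold change was 1.13 ± 0.21 (SE, edgeR adjusted p = 0.0642). The order of the hearts within each group was that of C5ar1. C5ar1 per Itgam was 1.13 to 1.35 in control hearts and 1.01 to 1.12 in transferred hearts, ranges that did not overlap, and this was not tested. C5ar2, the second C5a receptor gene next to C5ar1, did not pass the test either, and its log2 fold change was -0.12 (edgeR adjusted p = 0.844). Cd93, once described as a C1q receptor and expressed by endothelial cells, had a log2 fold change of -0.08. Itgax, named after its values were seen, was at most 1.19 CPM in any heart.

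**Figure D5:**
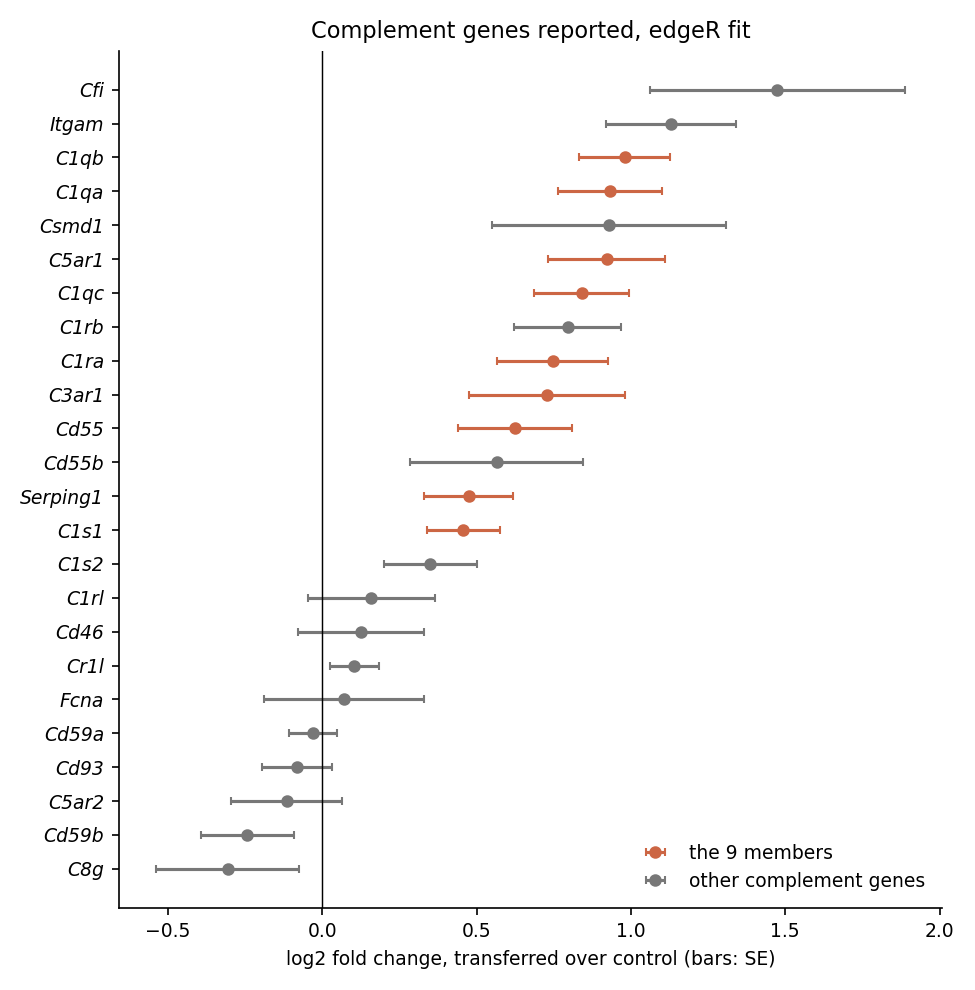
Log2 fold change of transferred over control hearts with standard errors from the edgeR fit, for the 9 members and the other complement genes reported with a mean of at least 1 CPM. The members lie between 0.46 and 0.98, Cfi and Itgam lie above them, and Cd59a, Cd93, C5ar2, Cd59b and C8g lie below 0.

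Genes with the most similar pattern over the 7 hearts were found by the Pearson correlation of log2 CPM among 5727 other genes with a mean of at least 5 CPM. This describes likeness only, because the hearts fall into the compared groups and share libraries. For the mean of the C1q genes, the 5 nearest were Atp9a (r = 0.992), Cst3 (r = 0.990), Mrc1 (r = 0.989), Apbb1ip (r = 0.989) and Themis2 (r = 0.988). Cst3 encodes the protease inhibitor cystatin C, and Mrc1 is one of the macrophage markers. For the mean of C1ra and C1s1, the 5 nearest were Ctss (r = 0.984), Selplg (r = 0.983), Rbpj-ps3 (r = 0.980), Cst3 (r = 0.980) and Apbb1ip (r = 0.977). Ctss encodes the lysosomal protease cathepsin S and is also one of the macrophage markers, and Selplg encodes the selectin ligand PSGL-1 of leukocytes. None of the 11 fibroblast markers was among these 5. With only 5 taken from 5727 genes, this absence says nothing about fibroblasts.

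The labels write the identifiers of the animals in 2 forms. Control heart 1 and transferred heart 1 have letters first, and 5 hearts have only numbers. Within those 5 hearts the log2 fold change was 0.84 for C1qa, 0.98 for C1qb, 0.80 for C1qc, 0.53 for C1ra, 0.50 for C1s1, 0.33 for Serping1, 0.71 for Cd55, 0.76 for C3ar1 and 1.0 for C5ar1. All 9 thus kept their direction. Within these hearts 0 members passed the edgeR test, as did 0 of all 7760 genes tested there. An unadjusted p-value under 0.05 was found for 7 members and for 1054 of those genes. With letters first there was 1 control and 1 transferred heart, which allows no test. What the forms stand for is not given in the sources used here.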

How the data were processed

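Polyadenylated RNA of the apical myocardium was sequenced as paired-end reads of 75 nt. The submitters' processing notes name bcl2fastq 2.20.0.422, cutadapt 2.5, STAR 2.7.2b, featureCounts 1.6.4, DESeq2 1.22.2 and the build GRCm38.p6. The authors deposited raw estimated counts per gene and the length of the combined exons per the file headers. Of the values, 4.63% had a fractional part, and all were rounded before testing. The table held 20343 complete genes and 1 unfinished row that was not used. The table covers chromosomes 1 to 7 and the start of chromosome 8, and genes elsewhere are not analysed here. Totals of its columns are therefore not library depths, and floors cover counting error only.

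Groups came from the treatment label, and replicate numbers follow accession order and only name hearts. Each heart has its own identifier in the labels, and p-values measure the spread between hearts. Genes were filtered with filterByExpr and scaled by TMM, which left 7667 genes, and were tested with the quasi-likelihood test of edgeR 4.0.16 with robust estimation in R 4.3.3. Adjustment was by Benjamini-Hochberg over all tested genes, and the threshold was 0.05. Standard errors came from the F statistic. Alternatives used DESeq2 1.42.0 and limma 3.58.1, other scalings and filters, the form of the animal identifier, and leaving out hearts. Summed paralogs and the newer quasi-likelihood method were added after seeing the data. Tested on simulated counts of 7556 genes with 200 changed 2-fold, the procedure found 90.5% of the changed genes, and the false share of its 188 calls was 3.72%. The simulation gave every gene the same biological coefficient of variation, 0.164, and drew the hearts independently. The real transferred hearts differed from each other in whole sets of genes, so these shares do not describe the real data.

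The members and gene lists were chosen with earlier results of these data known. Named genes are the members, listed complement genes with a mean of at least 1 CPM or past the threshold, the 5 genes of most similar pattern, and the 2 most abundant markers of a list with its defining genes at or near 0. Other genes, such as Spi1, Oas2, Cd247, Susd4, Itgax, Hc, Fcnb, C8b and C4bp, were named after their values were seen, and some genes that it selects are not reported here. Markers of macrophages, neutrophils, fibroblasts, endothelial cells, cardiomyocytes, T cells and interferon responses were used. The 10 endothelial markers analysed summed to 3944 to 4593 CPM in control hearts and 3987 to 5015 CPM in transferred hearts.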

Additional observations from a re-analysis of the deposited data

Results flagged for a closer look

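Control heart 4 stood apart from the other 3 control hearts in C5ar1, with a log2 CPM of 4.08 where theirs lay between 3.71 and 3.74. Of 11 results checked in this way, this was the 1 marked, and chance marks about 1 in 20. Control heart 4 was the highest control heart for 8 of the 9 members, and its macrophage marker sum was 459.4 CPM against 320.4 to 367.6 CPM in the other control hearts. Without control heart 4 the log2 fold change of C5ar1 was 1.02 (edgeR adjusted p = 0.112), against 0.92 with it (edgeR adjusted p = 0.0792).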

How the results depend on the processing

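The 9 members kept a positive log2 fold change in all 20 alternatives, but the number past the threshold moved from 1. Total count scaling gave 3 (C1qa, C1qb and C1qc), testing every gene that had any count gave 3 (C1qb, C1qc and C5ar1) and DESeq2 gave 7, where 35, 81 and 250 genes passed in all against 18. Limma-voom and the identifier form as a covariate each gave 0, with 9 at an unadjusted p-value under 0.05. Leaving out the 2 hearts with letters in their identifiers gave 0, with 7. Such a p-value was found for 907 of all 7667 genes with limma-voom and for 973 of 7667 with the covariate. Without the letter hearts it was found for 1054 of 7760. Under each of these 3 settings 0 of all tested genes passed. Leaving out one heart gave from 0 to 5 members. It was 5 without transferred heart 3, where 140 genes passed in all, and 0 without any other heart, with 8 or 9 at an unadjusted p-value under 0.05. In the fits that gave 0, the count over all genes at such a p-value ran from 658 of 7596 without control heart 2 to 1140 of 7805 without transferred heart 1. The adjusted p-value of C1qb ranged from 5.71e-07 with DESeq2 to 0.157, and Serping1 and C3ar1 passed in none of the alternatives. Of the further complement genes, 0 passed, but 1 did when every gene that had any count was tested, 2 did with DESeq2 and from 0 to 2 when one heart was left out. Their number at an unadjusted p-value under 0.05 was 8 with all hearts and from 5 to 8 when one heart was left out. It was 5 without control heart 2, where 658 of 7596 genes had such a p-value. The log2 ratio of C1q to C1ra and C1s1 differed by 0.33 between the groups, and by 0.28 to 0.36 without any one heart. That of C1q to macrophage markers differed by 0.12, and by 0.10 to 0.14. The cause of these movements was not tested. No paired analysis was made, because control and transferred hearts came from different mice and the labels give no pairing between them.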
